A study of Mus musculus with 9 samples.

Results

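Rangap1, Hdac1, Ppp4r1, Kif4 and Pdzd11 are genes reported as targets of the endogenous small interfering RNAs (endo-siRNAs) of mouse oocytes. They were taken by symbol, using every probe set that the platform annotation gives to exactly 1 of them, which makes 6 probe sets for 5 genes, out of 35557 probe sets and 19938 named genes on the array. Hdac1 has 2 probe sets and the other genes have 1 each, and no probe set names a member together with another gene. No source used here says how each gene came to be reported. If earlier work chose them for a rise in oocytes without Dicer, a rise here has the direction of that choice and is not independent evidence of it. The 5 genes were also chosen for this report with earlier results of these data known, so their counts and changes are a description.

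The arrays hold total RNA of ovulated metaphase II oocytes, eggs that are arrested until fertilization, from Dicer knockout, Dgcr8 knockout and wild-type females, with 3 biological replicates per genotype and the strain given as C57BL/6 for all 3 groups. Ovulation had been induced in all females with pregnant mare serum gonadotropin (7.5 IU) followed by human chorionic gonadotropin (7.5 IU), and oocytes were collected 16 h after the second hormone and freed of cumulus cells. No source used here gives the alleles, the promoter of any Cre, the age of the females, or the animals and oocytes behind an array. The values are GCRMA signals on a log2 scale, normalized between arrays by the authors, so 1 unit is a 2-fold difference. Levels of different probe sets are set side by side only as a rough check of cell type and of nearness to the signal floor.

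Endo-siRNAs arise where RNA strands pair into a long duplex, for example when a messenger RNA meets the antisense transcript of a pseudogene, or when transcripts of neighbouring genes overlap. Dicer cuts such duplexes without help from Dgcr8, and an Argonaute protein, above all Ago2, uses the products to cut transcripts with the same sequence. MicroRNAs need both enzymes: Dgcr8 with Drosha releases the hairpin from the primary transcript, and Dicer cuts the hairpin. Mouse oocytes are known for an unusually active endo-siRNA pathway. The Dicer and Dgcr8 knockouts side by side show which changes came with loss of Dicer only and which with loss of either. Direct and indirect effects of a loss cannot be told apart this way.

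The targeted genes followed the labels, though whether their probes lie in the deleted parts is not known here. Dicer1 averaged 10.72 ± 0.13 in Dicer knockout, 11.68 ± 0.06 in Dgcr8 knockout and 11.67 ± 0.01 in wild-type oocytes, and Dgcr8 averaged 8.46 ± 0.23, 5.71 ± 0.26 and 8.96 ± 0.10 in the same order (log2 signal, SD, n = 3 each). The cell type label was checked with 12 oocyte markers, whose mean log2 signal per array lay between 11.81 and 11.93 in Dicer knockout, 11.68 and 11.82 in Dgcr8 knockout and 11.73 and 11.82 in wild-type arrays. The same mean over 13 cumulus and granulosa markers was 5.24 to 5.29, 5.26 to 5.37 and 5.27 to 5.35. In Dicer knockout against wild-type 0 of the 12 tested were called (limma), which is near the 11.3% of all genes tested. An unadjusted p under 0.05 was found for 4 of the 12, beside 4102 of the 17324 genes tested. Over 8 oviduct and blood markers the mean log2 signal per array was 6.18 to 6.22, 5.85 to 6.24 and 6.06 to 6.15. These were 8 of 11 listed. The oviduct gene Ovgp1 and the haemoglobin genes Hbb-bs and Hba-a1 were not matched to a probe set naming 1 gene, so they were not checked. Single markers could lie far from these means, such as Nr5a2 of the granulosa list (9.80 in wild-type) and Pecam1 of the oviduct and blood list (9.26 in wild-type). Called were the macrophage marker Cd68, higher by 0.96 in Dicer knockout oocytes (adjusted p 0.0110, and 0.0507 without wild-type replicate 3), and 1 oocyte marker, the zona pellucida gene Zp2, higher by 0.40 (up to 0.0843 with 1 array left out). The other 7 oviduct and blood markers were not called, among them the blood cell marker Ptprc (log2 change -0.04, adjusted p 0.836). Ptprc averaged 4.81 in Dicer knockout and 4.85 in wild-type oocytes (log2 signal). That is near the floor of 4 that a gene had to reach to be tested, so a small change would be hard to see. The part of Cd68 and Zp2 in the results was not tested.

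All 5 targets rose without Dicer relative to wild-type, by 1.44-fold to 5.94-fold, and none was called in Dgcr8 knockout oocytes. A gene was called at a limma adjusted p under 0.05 over the 17324 genes with enough signal to be tested, and all 5 genes passed that filter. Of all genes tested, 4.87% were called higher in Dicer knockout against wild-type and 11.3% in either direction. In Dgcr8 knockout against wild-type 0.0231% of all genes were called, so a count of 0 among 5 is near that share. For all 5 genes every Dicer knockout array stood above every wild-type array, which held for 10.0% of genes tested. The median log2 change of the 5 was 1.57, against -0.03 over all genes. The oocytes were measured in bulk, so a change in fewer cells and a smaller change in every cell cannot be told apart.

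Rangap1 (Entrez gene 19387, probe set 10430748) encodes the GTPase activator of Ran, which turns Ran-GTP into Ran-GDP outside the nucleus and on the mitotic spindle. Its log2 signal was 9.41, 9.14 and 9.14 in Dicer knockout oocytes, 6.72, 6.60 and 6.59 in Dgcr8 knockout oocytes and 6.85, 6.58 and 6.55 in wild-type oocytes. The Dicer knockout arrays stood apart from the others, which overlapped, and the lowest Dicer knockout value was 2.29 above the highest wild-type value. Without Dicer the log2 change was 2.57 ± 0.12 (SE; 95% interval 2.31 to 2.83; adjusted p 1.29e-06), or 5.94-fold, which ranked 25 among the increases of the 17324 genes.

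Hdac1 (Entrez gene 433759) encodes a class I histone deacetylase of the Sin3, NuRD and CoREST corepressor complexes. Its probe set 10516605, which stands for the gene, read 10.49, 10.62 and 10.46 in Dicer knockout, 8.06, 8.66 and 8.66 in Dgcr8 knockout and 8.22, 8.26 and 8.45 in wild-type oocytes (log2 signal). Dgcr8 knockout replicate 1 was the lowest of all 9 arrays, and the Dgcr8 knockout values lay on both sides of the wild-type ones. Without Dicer the log2 change was 2.21 ± 0.15 (SE; 95% interval 1.87 to 2.55; adjusted p 1.33e-05), or 4.63-fold, rank 42 among the increases.

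The other Hdac1 probe set, 10447004, gave 9.90, 9.96 and 9.90 in Dicer knockout, 7.42, 7.92 and 8.01 in Dgcr8 knockout and 7.61, 7.61 and 7.80 in wild-type oocytes (log2 signal). In this set too the Dicer knockout arrays stood above the others, and Dgcr8 knockout replicate 1 was the lowest of all 9 arrays. Tested among all probe sets, it changed by 2.25 ± 0.14 (log2, SE; adjusted p 1.12e-05) in the Dicer knockout. Both sets carry the same transcript accessions in the annotation, and RefSeq also lists a pseudogene named Hdac1-ps, to which no probe set is annotated. No source used here gives the locus each set was designed on, so signal from Hdac1 and from Hdac1-ps cannot be told apart and the 2 sets are not independent measurements.

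Ppp4r1 (Entrez gene 70351, probe set 10446402) encodes a regulatory subunit of protein phosphatase 4, a serine/threonine phosphatase. It read 9.82, 9.70 and 9.50 in Dicer knockout, 8.39, 8.05 and 8.07 in Dgcr8 knockout and 7.97, 8.16 and 8.19 in wild-type oocytes (log2 signal). Only the Dicer knockout arrays were set apart, by 1.31 from the nearest wild-type array. The log2 change was 1.57 ± 0.12 (SE; 95% interval 1.30 to 1.83; adjusted p 2.63e-05), or 2.97-fold, rank 102.

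**Figure D1:**
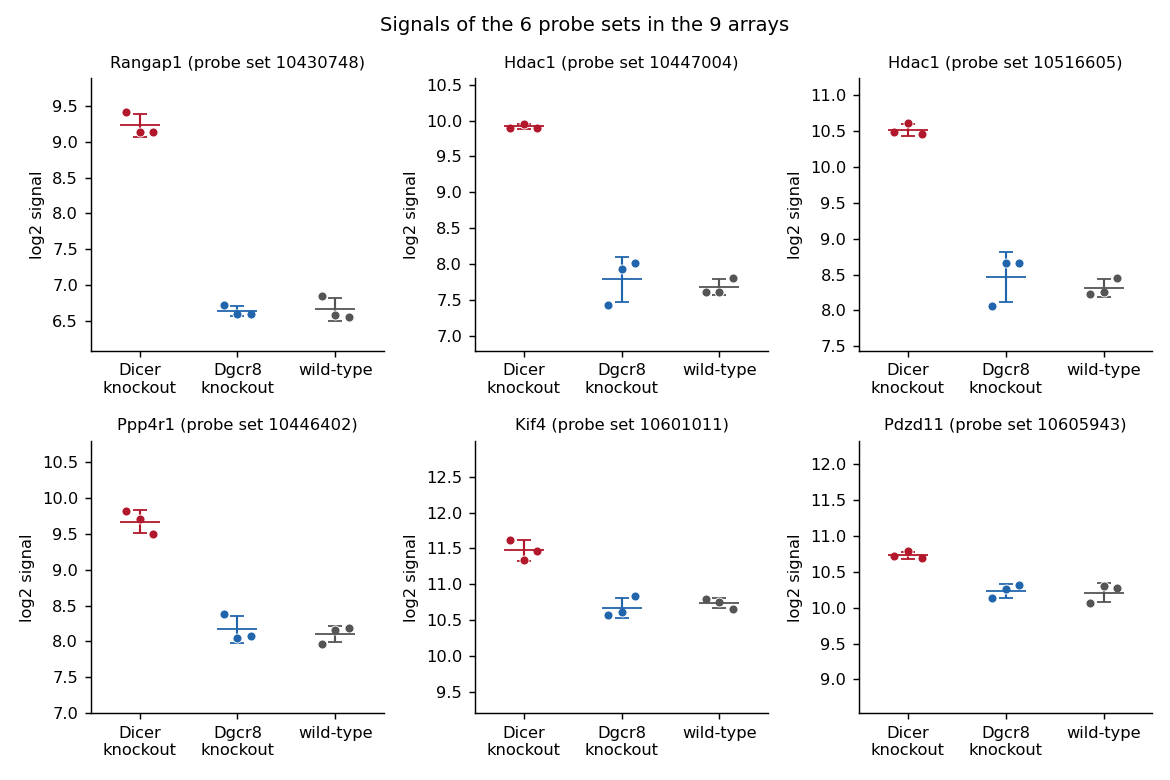
Log2 signal (vertical axes) of the 6 probe sets in each array, with Dicer knockout, Dgcr8 knockout and wild-type oocytes from left to right; points are arrays, horizontal bars the mean and error bars the SD of 3 arrays. Every panel spans the same range of log2 units, so distances can be compared between panels; the Dicer knockout points stand above the other 6 in every panel, with the widest gap for Rangap1.

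Kif4 and Pdzd11 are next to each other on the X chromosome and rose less. Kif4 (Entrez gene 16571, probe set 10601011) encodes a chromokinesin, a motor that binds chromosomes and the central spindle. It read 11.62, 11.33 and 11.46 in Dicer knockout, 10.57, 10.61 and 10.83 in Dgcr8 knockout and 10.79, 10.75 and 10.65 in wild-type oocytes (log2 signal). All Dicer knockout values lay above the rest. The log2 change was 0.74 ± 0.09 (SE; 95% interval 0.55 to 0.93; adjusted p 0.000461), or 1.67-fold, rank 451.

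Pdzd11 (Entrez gene 72621, probe set 10605943) encodes a small protein with a PDZ domain that binds membrane proteins at cell junctions. It read 10.72, 10.79 and 10.70 in Dicer knockout, 10.13, 10.27 and 10.31 in Dgcr8 knockout and 10.06, 10.30 and 10.28 in wild-type oocytes (log2 signal). The Dicer knockout arrays again stood above the others, by 0.39 from the highest wild-type array, while the Dgcr8 knockout and wild-type values overlapped. The log2 change was 0.52 ± 0.07 (SE; 95% interval 0.36 to 0.69; adjusted p 0.00151), or 1.44-fold, rank 757. The intervals of Kif4 and Pdzd11 overlap each other and lie below that of Ppp4r1, while those of Rangap1 and Hdac1 overlap and lie above it.

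Kif4 and Pdzd11 are transcribed away from each other, with 123 bases between their starts in the RefSeq promoter table (build GRCm38.p6). Of 13572 genes on the plus strand in that table, 4.58% have a start on the other strand at least as near. Because this stretch precedes both genes it is shown here, on the plus strand as chrX:100625942-100626064, from the base after the start of Pdzd11 to the base before the start of Kif4. The same number of bases before the start of Rangap1, on the minus strand as chr15:81729920-81730042, is shown for comparison, since Rangap1 changed most. The RefSeq promoter table held entries for 3 members (Kif4, Pdzd11 and Rangap1) and none for Hdac1 or Ppp4r1. Capitals mark a CCAAT box (letters CCAAT) or a GC box (letters GGGCGG) on either strand.
Kif4 and Pdzd11: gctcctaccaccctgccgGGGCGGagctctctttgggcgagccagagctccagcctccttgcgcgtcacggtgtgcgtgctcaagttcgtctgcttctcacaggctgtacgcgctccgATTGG
Rangap1: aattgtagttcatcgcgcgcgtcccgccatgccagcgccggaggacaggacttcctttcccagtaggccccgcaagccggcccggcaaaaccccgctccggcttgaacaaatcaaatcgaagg

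The stretch between Kif4 and Pdzd11 holds 1 GC box, from base 19 on the strand shown, and 1 CCAAT box on the opposite strand, at base 119, next to the start of Kif4. The 2 matches do not overlap. The stretch before Rangap1 holds neither. Of 32851 RefSeq promoter entries, 26.7% hold GGGCGG and 21.6% hold CCAAT on either strand in the same 123 bases. The letters TATAAA (6.48% of entries) and TTTGAA (7.26%), also searched on both strands, were in neither stretch. The G and C content was 65.0% between Kif4 and Pdzd11 and 61.8% before Rangap1, against a mean of 55.3% over all entries.

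In Dgcr8 knockout oocytes 0 of the 5 genes was called by limma, and 0 had an unadjusted p under 0.05, the smallest being 0.346 for Hdac1. Over all genes tested, 0.0231% were called in this comparison, and 457 of 17324 had an unadjusted p under 0.05. Both counts of 0 among 5 are near those shares. The log2 change was -0.02 for Rangap1 (95% interval -0.28 to 0.23) and 0.15 for Hdac1 (-0.19 to 0.49). It was 0.07 for Ppp4r1 (-0.20 to 0.33), -0.06 for Kif4 (-0.25 to 0.13) and 0.02 for Pdzd11 (-0.14 to 0.19). For each gene the upper bound lay below the lower bound of its own interval in the Dicer knockout, though for Hdac1 the interval still reaches 1.40-fold. The knockouts share the wild-type arrays, so these values stand side by side and are not separate evidence.

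The direct comparison of both knockouts does not use the wild-type arrays. Here all 5 targets were called higher in oocytes without Dicer than in those without Dgcr8, where 5.48% of all genes tested were called higher and 13.4% in either direction. The log2 change was 2.59 ± 0.12 for Rangap1, 2.06 ± 0.15 for Hdac1, 1.50 ± 0.12 for Ppp4r1, 0.80 ± 0.09 for Kif4 and 0.50 ± 0.07 for Pdzd11 (SE). The adjusted p ran from 1.36e-06 for Rangap1 to 0.00185 for Pdzd11. All Dicer knockout arrays again stood above all Dgcr8 knockout arrays for all 5 genes, as they did for 10.2% of genes tested. This comparison shares the Dicer knockout arrays with the first.

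**Figure D2:**
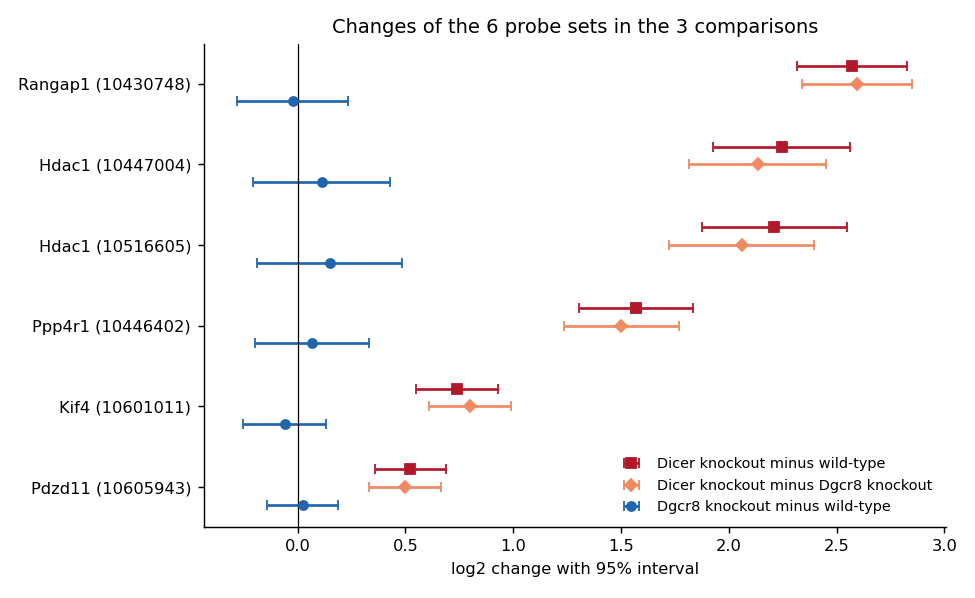
Log2 change with its 95% interval (horizontal axis, limma) of the 6 probe sets in Dicer knockout minus wild-type (squares), Dicer knockout minus Dgcr8 knockout (diamonds) and Dgcr8 knockout minus wild-type (circles). Both comparisons with the Dicer knockout lie above 0 throughout, from 0.50 for Pdzd11 to 2.59 for Rangap1, and every interval of the Dgcr8 knockout against wild-type holds 0.

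The rise was present in each of the 3 Dicer knockout arrays. Relative to the wild-type mean, the 5 genes had a median log2 difference of 1.72, 1.60 and 1.39 in Dicer knockout replicates 1, 2 and 3, -0.08, -0.05 and 0.10 in the Dgcr8 knockout replicates and -0.09, 0.02 and 0.06 in the wild-type replicates. The order Rangap1, Hdac1, Ppp4r1, Kif4, Pdzd11 was that of the mean changes. With any 1 of the 9 arrays left out, the log2 change in the Dicer knockout stayed between 2.48 and 2.67 for Rangap1, 2.16 and 2.28 for Hdac1, 1.49 and 1.66 for Ppp4r1, 0.66 and 0.81 for Kif4, and 0.45 and 0.57 for Pdzd11. All 5 were called each time, with a highest adjusted p of 0.00746.

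Of 3 pseudogenes whose names are built on a member's symbol, Hdac1-ps has no probe set annotated to it and the other 2 were not called. Ppp4r1l-ps carries the symbol Ppp4r1l, which is that of Ppp4r1 with an added letter, so the name alone does not tie it to Ppp4r1. Kif4-ps, a transcribed pseudogene in RefSeq, has 2 probe sets: 10397786 averaged 5.15 ± 0.13 in Dicer knockout, 5.12 ± 0.11 in Dgcr8 knockout and 5.10 ± 0.08 in wild-type oocytes, and 10397788 averaged 4.86 ± 0.14, 4.73 ± 0.08 and 4.79 ± 0.10 in the same order (log2 signal, SD, n = 3). The log2 changes in the Dicer knockout were 0.04 (95% interval -0.16 to 0.25; adjusted p 0.848) and 0.07 (-0.14 to 0.28; adjusted p 0.729, over probe sets). Ppp4r1l-ps averaged 4.25 ± 0.15, 4.40 ± 0.04 and 4.39 ± 0.03, a log2 change of -0.13 in the Dicer knockout (-0.32 to 0.05; adjusted p 0.401). These signals are near the floor of 4 that a gene had to reach to be tested, so a small change in them would be hard to see.

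The genes around each member were compared to see whether whole regions moved. Of 40 neighbours, the 5 nearest measured protein-coding genes on each side in RefSeq order, 37 were tested. In the Dicer knockout 2 of the 37 were called higher and 3 lower, with a median log2 change of -0.01. Over all genes tested, 4.87% were called higher in this comparison and 11.3% in either direction, so the neighbour counts lie near those shares. Around Rangap1, the RNA-binding zinc finger gene Zc3h7b, its nearest neighbour on one side, fell to a log2 signal of 8.23 in Dicer knockout oocytes, against 9.22 in wild-type (log2 change -0.99 ± 0.10, SE; adjusted p 0.000249). Chadl on the other side was at 5.57 and 5.60 (log2 change -0.03, adjusted p 0.911). Rangap1 and Zc3h7b therefore moved in opposite directions.

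Around Hdac1, 9 of 10 neighbours were not called, beside 11.3% of all genes tested that were called. The nearest were Marcksl1 (log2 change 0.31, adjusted p 0.393) and Fam167b (-0.11, adjusted p 0.623). Zbtb8b was called lower (-0.47, adjusted p 0.0441) but missed the threshold in 7 of 9 fits without 1 array (adjusted p up to 0.138). Around Ppp4r1 the nearest were Rab31 (-0.39, adjusted p 0.225) and Twsg1 (-0.09, adjusted p 0.689), and Txndc2, a thioredoxin-domain gene of sperm, was called lower (-0.36 ± 0.06, SE; adjusted p 0.00377).

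Around Kif4 and Pdzd11, 2 of the 8 tested neighbours were called, both higher, a small count beside the 4.87% of all genes tested that were called higher. Slc7a3, a transporter of cationic amino acids 4 genes from Kif4, had a mean log2 signal of 7.28 in Dicer knockout and 4.43 in wild-type oocytes (log2 change 2.85 ± 0.15, SE; adjusted p 2.76e-06). Igbp1, which encodes a protein that binds catalytic subunits of the family that includes protein phosphatase 4, was at 11.21 and 10.69 (log2 change 0.52 ± 0.11, SE; adjusted p 0.0118). No tested gene between them and the pair was called: Gdpd2, the nearest, had a log2 change of -0.08 (adjusted p 0.609), and Arr3, nearest on the side of Pdzd11, did not pass the signal filter.

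**Figure D3:**
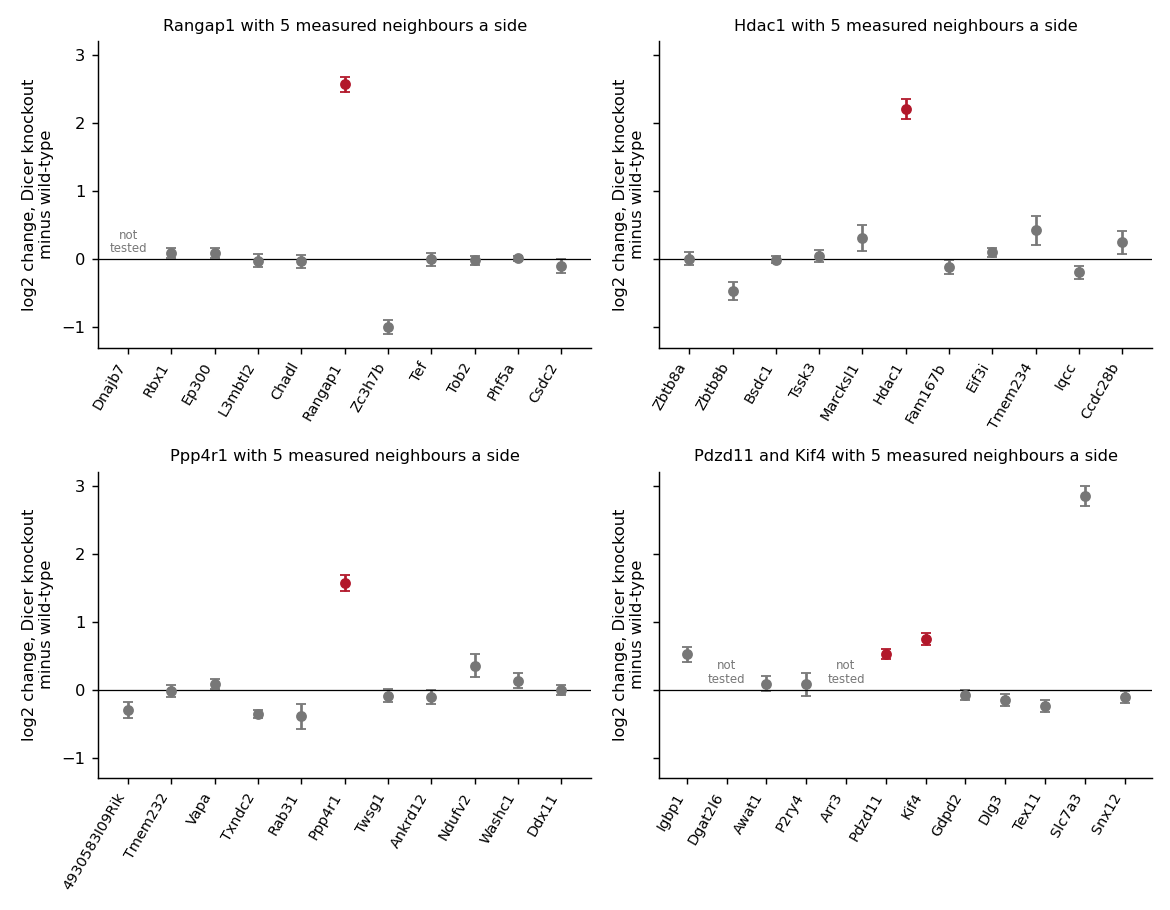
Log2 change in Dicer knockout minus wild-type oocytes (vertical axis) of each reported target (red) and its 5 nearest measured protein-coding neighbours on each side (grey), in the order of the chromosome and not to scale; bars are SE. Each target stands above its neighbours except near Kif4 and Pdzd11, where Slc7a3 reached 2.85.

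Genes that act with the 5 targets, and the RNA interference machinery, were called at a share near that of all genes. Of 99 listed genes 94 were tested, and 12 were called in the Dicer knockout, 4 of them higher and 8 lower, or 12.8% against the 11.3% over all genes, with a median log2 change of -0.06. In Dgcr8 knockout oocytes 0 were called by limma, beside 0.0231% of all genes tested. An unadjusted p under 0.05 was found for 1 of the 94, beside 457 of the 17324 genes tested. These lists were written from general knowledge of each gene's partners, with earlier results of these data known, so their counts are a description.

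Among 15 genes of the RNA interference machinery, Dicer knockout oocytes had 1 called higher and 3 called lower. Tsnax, a subunit of the translin nuclease known from flies and human cells to clear the passenger strand of small interfering RNAs, was at 10.41 ± 0.11 in Dicer knockout and 9.02 ± 0.19 in wild-type oocytes (log2 signal, SD, n = 3). It changed by 1.39 ± 0.13 on the log2 scale (SE; adjusted p 0.000106). The lower ones were Dicer1 itself (-0.95 ± 0.06, SE; adjusted p 1.01e-05), the Tudor nuclease gene Snd1 (-0.36, adjusted p 0.0115) and the exonuclease gene Eri1 (-0.35, adjusted p 0.0295). The call of Snd1 was lost when wild-type replicate 3 was left out (adjusted p 0.0521), and that of Eri1 in 5 of 9 fits with 1 array left out (up to 0.113). Ago2, the slicing Argonaute, was not called, at 7.56 ± 0.09 and 7.62 ± 0.12 (log2 change -0.06, 95% interval -0.33 to 0.22; adjusted p 0.852).

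Of 12 tested partners of Rangap1 in the Ran cycle, 1 was called: Ran, the GTPase on which Rangap1 acts, was higher at 9.89 ± 0.15 in Dicer knockout and 8.93 ± 0.16 in wild-type oocytes (log2 signal, SD, n = 3; change 0.97 ± 0.13, SE; adjusted p 0.000899). The next smallest adjusted p were those of the export receptor Cse1l (-0.18, adjusted p 0.133) and the nucleoporin Ranbp2 (0.39, adjusted p 0.188). Of 24 partners and paralogs of Hdac1, 1 was called, the NuRD subunit Gatad2b (-0.13, adjusted p 0.0314), which missed the threshold in 6 of 9 fits without 1 array (up to 0.130). Hdac2, the closest paralog, averaged 10.80 ± 0.03 in Dicer knockout and 10.82 ± 0.09 in wild-type oocytes (log2 change -0.02, 95% interval -0.18 to 0.14; adjusted p 0.917).

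Among 11 tested phosphatase genes, Igbp1 was called higher as given above, and Tiprl, which binds the same catalytic subunits, was called lower (-0.28 ± 0.05, SE; adjusted p 0.00589). Ppp4c, the catalytic subunit that Ppp4r1 regulates, was not called, at 9.12 ± 0.08 and 9.05 ± 0.17 (log2 change 0.07, 95% interval -0.14 to 0.28; adjusted p 0.732). Of 22 central spindle and condensin genes 1 was called higher and 2 lower. The higher one was Prc1, the microtubule bundler that works with Kif4 at the central spindle (0.49 ± 0.06, SE; adjusted p 0.000600), and the lower ones were the topoisomerase Top2a (-0.68 ± 0.08, SE; adjusted p 0.000460) and the kinesin Kif14 (-0.23, adjusted p 0.0108). Of 10 tested membrane partners of Pdzd11, the protease Adam10 was called lower (-0.46 ± 0.09, SE; adjusted p 0.00881).

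**Figure D4:**
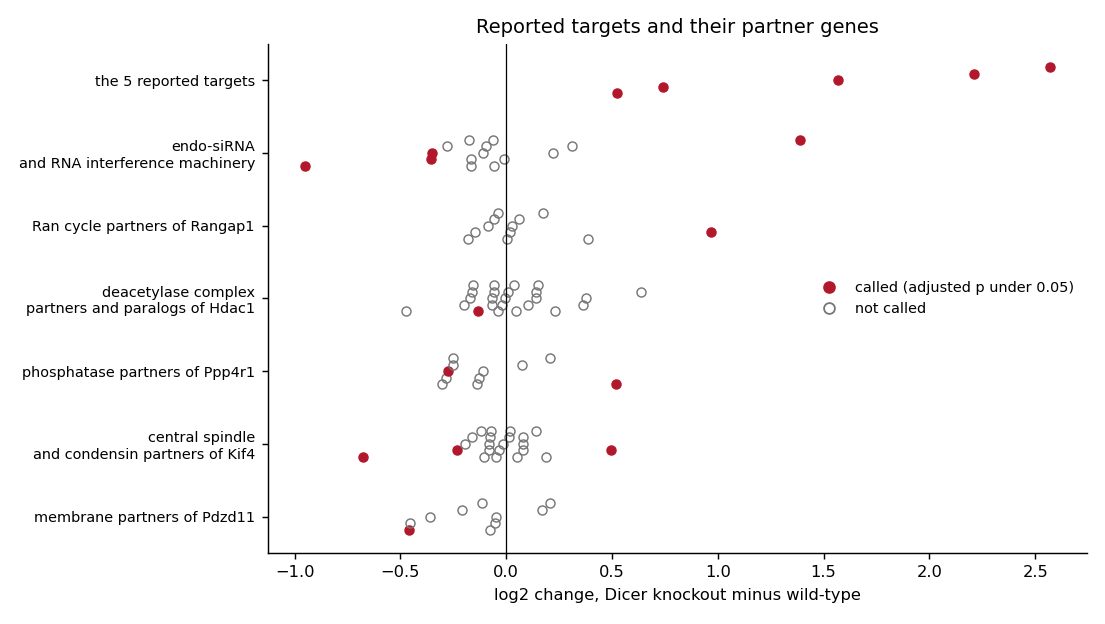
Log2 change in Dicer knockout minus wild-type oocytes (horizontal axis) of the 5 reported targets and of the tested genes of 6 partner lists; each circle is a gene, filled where limma called it, and the vertical spread within a row only separates circles. All 5 targets are filled and above 0, while the 94 partner genes lie on both sides of 0 with 12 filled.

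Genes whose pattern over the 9 arrays was most like that of each target were taken by Pearson r among the genes tested. Predicted (Gm and LOC) and RIKEN names and the other targets were left out before ranking. The ranking is a description that mostly reflects the step between Dicer knockout and the other arrays. The 5 targets themselves were correlated at r of 0.91 to 0.98. Nearest to Rangap1 were Rabac1 (r = 0.997), Slc7a3 (0.997) and Zfp869 (0.996), and nearest to Hdac1 were Cpb1 (0.997), Gins2 (0.991) and C1qb (0.991). Nearest to Ppp4r1 were Pfdn5 (0.996), Nudcd3 (0.995) and Slc5a4b (0.991), to Kif4 Zfp277 (0.995), Mrvi1 (0.989) and Cfap298 (0.988), and to Pdzd11 Tpgs2 (0.981), Myo19 (0.977) and Gins2 (0.974). C1qb encodes a chain of complement C1q and, like Cd68, is known as a macrophage gene. It averaged 8.71 in Dicer knockout and 7.09 in wild-type oocytes (log2 signal; change 1.62, adjusted p 1.16e-05), was called with any 1 array left out, and was not on the marker lists. Its part in the results was not tested. The log2 changes of these genes in the Dicer knockout ran from 0.32 for Cfap298 to 3.21 for Zfp869, and Cfap298 alone among them lost its call with an array left out (adjusted p 0.0591 for wild-type replicate 3 and 0.0504 for Dicer knockout replicate 1).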

How the data were processed

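Total RNA of 9 oocyte samples (3 Dicer knockout, 3 Dgcr8 knockout, 3 wild-type) was measured on arrays. The deposited values are log2 signals per probe set, made by the authors with GCRMA per the submitters' processing notes (version not given in the sources used here). They range from 1.05 to 13.3, with array medians of 5.48 to 5.58, and were used without further normalization. The number of arrays limits the precision (median 95% half-width of a log2 change, 0.23), and the p-values measure the spread between these samples.

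Of 35557 probe sets, 21789 name 1 gene, 1621 several and 12147 are unnamed here; 21698 of the first matched RefSeq (GRCm38.p6), used for names, gene order and promoter sequences. Each gene was represented by its probe set of highest mean, and the 17324 genes that reached 4 (log2) in 3 or more arrays were tested with limma 3.58.1 (R 4.3.3, statmod 1.5.0; trend and robust), all 9 arrays in 1 fit without covariates, two-sided, with Benjamini-Hochberg adjustment over all genes. The extra Hdac1 and Kif4-ps probe sets were tested in the same fit over probe sets. The script was tested on simulated data.

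The members and lists were chosen with earlier results of these data known. Genes named are the members, Dgcr8 and Dicer1, up to 3 genes per list by adjusted p, 5 set partners, the nearest neighbours and the 3 genes most correlated with each member. For the correlations, predicted (Gm and LOC) and RIKEN names and other members were skipped. Others named (called genes of small counts, single cell type markers called or not, the pseudogenes and Slc7a3 as a neighbour) were picked after their values were seen.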

Additional observations from a re-analysis of the deposited data

How the results depend on the processing

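The 5 targets were called higher in Dicer knockout oocytes, against wild-type and against Dgcr8 knockout, and 0 were called in Dgcr8 knockout against wild-type, under every alternative run except a required change of at least 1 (log2), which left 3 (Rangap1, Hdac1 and Ppp4r1) in each of the first 2 comparisons. The alternatives were no signal filter, a floor of 6, quantile normalization, averaged probe sets per gene, all probe sets, eBayes without trend and robust settings, only the 2 groups compared, array weights, an adjusted p under 0.01, a replicate block and each of the 9 arrays left out. Replicate numbers showed no clear pairing of the arrays. Deviations of same-numbered arrays correlated at -0.24 to 0.11 and those of other-numbered arrays at -0.16 to 0.25. With 3 arrays per group these correlations cannot settle whether the numbers mark pairs. With the replicate block, all 5 targets were called in both comparisons with the Dicer knockout and 0 in the other, and 12 partner genes were called. The partner genes called in Dicer knockout against wild-type numbered 12, but 7 at an adjusted p under 0.01 and 1 with a change of at least 1; with 1 array left out they ranged from 9 to 15. Over all genes, the 1964 called in Dicer knockout against wild-type became 1238 without wild-type replicate 3, 981 at an adjusted p under 0.01 and 358 with a change of at least 1. The 2321 called between the knockouts became 1511 without Dgcr8 knockout replicate 1, 1127 and 391 under the same limits. The 4 called in Dgcr8 knockout against wild-type numbered 2 to 4 with 1 array left out, 2 with only the groups compared and 6 with array weights.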
